A study of Mus musculus with 8 samples.

Results

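The genes described here encode the protein subunits of the cytosolic ribosome, in ribosome-associated mRNA from PV+ interneurons of the primary somatosensory cortex (S1) of mice. They were chosen by gene name alone (Rpl or Rps followed by a number and at most 1 further letter out of a, l, x and y, plus *Rplp0*, *Rplp1*, *Rplp2* and *Rpsa*) and by having at least 10 counts in at least 5 of the 8 samples. Of 81 genes with such a name, 79 passed, out of 17495 genes that passed the same filter and 45706 listed in all. *Rpl10a* was set apart, because the virus brought in a tagged copy of it, which left 46 genes of the large subunit and 32 of the small subunit, 78 in total. The 2 that did not pass were *Rpl10l*, which was listed at 0 counts in every sample, and *Rpl39l*, with at most 6 counts in a sample.

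All 8 samples came from mice of the genotype PvalbFlp/+;Neurod6Cre/+ that had received, in S1 at postnatal day 1, an AAV with a flox-fdio cassette of HA-RPL10a joined to myc-hM3Dq. Flp recombinase turns this construct on in *Pvalb* cells and Cre recombinase removes it in *Neurod6* cells, so both groups carried an HA-tagged RPL10A ribosomal protein together with hM3Dq, a designed receptor through which CNO makes neurons more active. The CNO group (4 samples) received 5 injections of CNO at 1 mg/kg over about 48 h, and the vehicle group (VEH, 4 samples) received 5 injections without it, at ages that the labels give as 42 to 70 days. Ribosomes were pulled down through the HA tag, their mRNA was sequenced, and per the study's methods every sample pooled 4 brains with sparse infection under the hSyn promoter. The samples therefore do not resolve single mice, and p-values measure the spread between these pools. Samples are named by group and by the replicate number in the labels. The purpose of the comparison was to find mRNAs whose ribosome association changes when PV+ interneurons are activated.

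Each cytosolic ribosome joins a small subunit, which reads the mRNA, to a large subunit, which forms the peptide bond. Their proteins are made from separate genes in nearly equal numbers, and in most cells these mRNAs rank among the abundant ones. Most of these mRNAs begin with a cytosine followed by a run of pyrimidines, the 5′ terminal oligopyrimidine (TOP) motif, through which mTOR signalling sets how strongly they are loaded onto ribosomes. In neurons, sustained activity is known to act on mTOR and on S6 kinase, whose best known substrate is the small subunit protein RPS6.

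Because a pyrimidine run at the start of the mRNA is a known feature of this gene family, start sites with the pyrimidine letters CTTTCC nearby are shown. Of the 79 genes, 58 had a promoter in RefSeq (GRCm38.p6), and 9 of these 58 (15.5%) held the letters CTTTCC on the sense strand within the 30 bases centred on the annotated start, compared with 1.67% of 27025 genes with a promoter there. Each line gives the 30 bases on the strand of the gene, 5′ to 3′, with CTTTCC in capitals.

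Rpl13a, chr7:45128731-45128760, minus strand: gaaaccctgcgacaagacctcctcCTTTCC
Rpl15, chr14:18270972-18271001, minus strand: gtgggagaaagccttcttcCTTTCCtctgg
Rpl28, chr7:4792950-4792979, plus strand: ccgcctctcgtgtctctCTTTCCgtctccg
Rpl35a, chr16:33056467-33056496, plus strand: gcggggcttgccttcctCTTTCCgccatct
Rpl38, chr11:114668565-114668594, plus strand: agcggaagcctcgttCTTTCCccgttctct
Rps10, chr17:27635230-27635259, minus strand: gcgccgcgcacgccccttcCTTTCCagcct
Rps27, chr3:90213634-90213663, minus strand: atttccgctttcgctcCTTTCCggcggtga

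The other 2 were *Rpl18* and *Rpl35*. In the whole window of 300 bases (250 before and 50 after the start), CCGGAAG, the core letters bound by ETS family factors, lay on either strand in 41.4% of the 58 promoters and in 9.93% of all promoters. TATAAA, the core of a TATA box, was found on the sense strand within 50 bases before the start in 0 of the 58 and in 3.15% of all promoters. AAGATGG, letters bound by YY1, lay on the sense strand within 50 bases after the start in 5.17% of the 58 and 1.54% of all promoters. These matches describe letters only, and the windows of the motifs overlap. CTTTCC did not have to begin at the annotated start, and other pyrimidine runs were not counted, so its share does not measure TOP motifs.

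The ribosomal protein genes were expressed at similar levels for most members. TPM (a length-corrected level whose sum is the same in each sample) allows levels to be compared between genes. The mean TPM over the 8 samples had a median of 126.8 across the 78 genes, with quartiles of 92.1 and 178. Of the 78, 69 lay between 50 and 300 TPM, 7 below 50 and 2 above 300. Summed over the 78 genes, the members took 0.738 to 1.28% of all TPM and 0.185 to 0.321% of all counts, which are not corrected for length. By transcript length, 73 of the 78 genes fell in the shortest 20% of all tested genes and 5 in the next 20%.

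**Figure D1:**
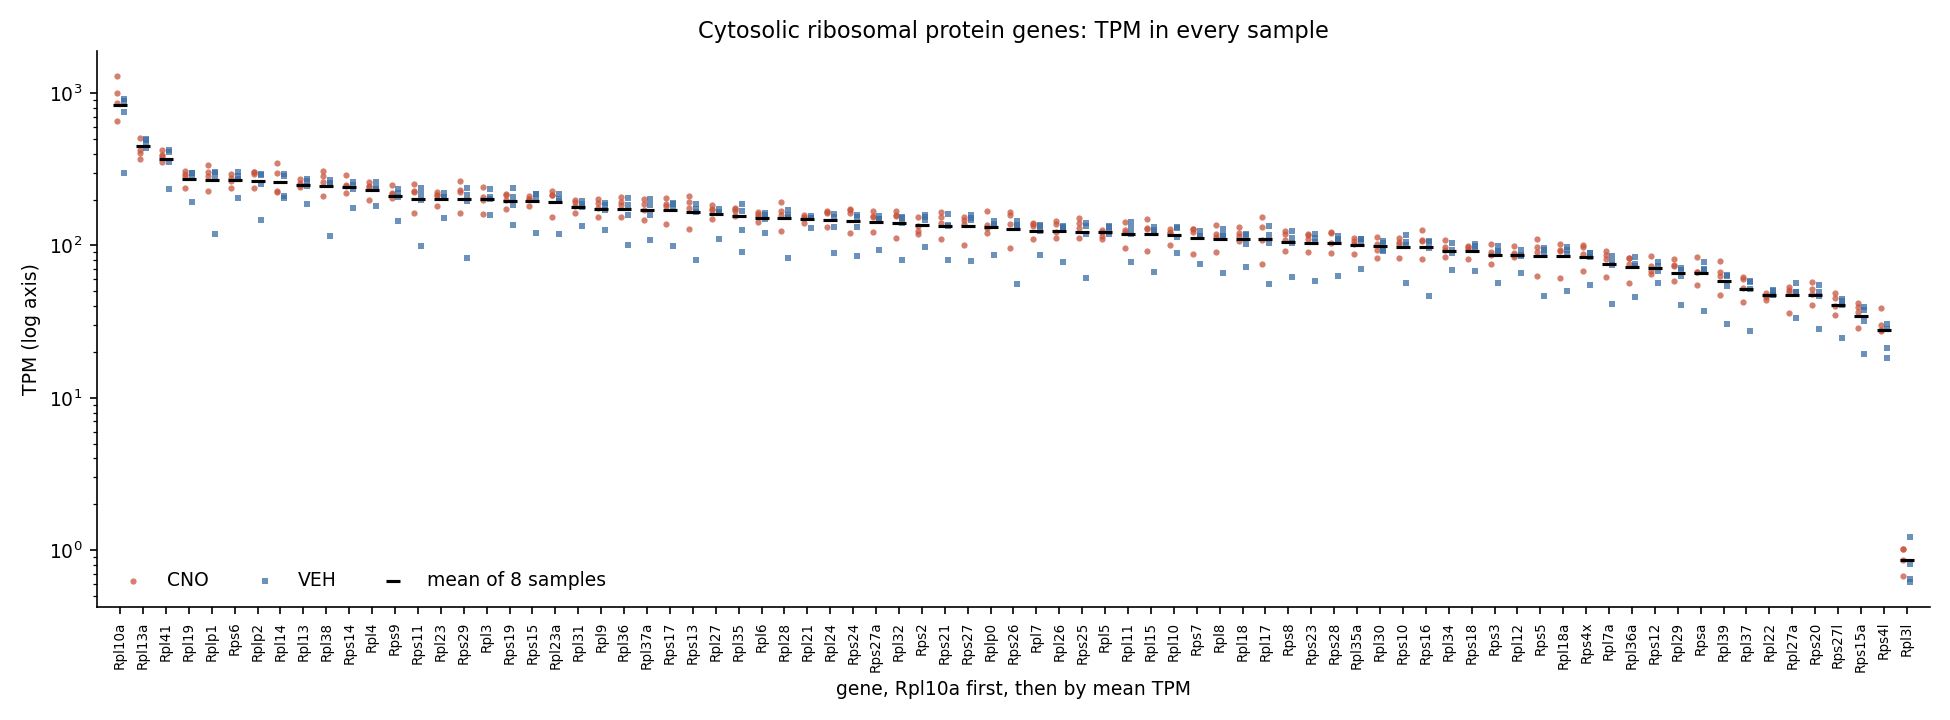
TPM (log axis) of each of the 79 genes in each of the 8 samples, with *Rpl10a* first and the other genes ordered by mean TPM; circles are CNO samples, squares are VEH samples and black bars are means over 8 samples. *Rpl10a* stands highest at a mean of 833 TPM and *Rpl3l* lowest at 0.859 TPM, and for most genes a single VEH square, that of replicate 1, lies under the rest.

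The 2 most abundant members were large subunit genes. *Rpl13a*, whose protein also takes part in silencing of inflammatory mRNAs, had 369, 402, 511 and 421 TPM in CNO replicates 1 to 4 and 503, 436, 489 and 471 TPM in VEH replicates 1 to 4. The groups overlapped, and VEH replicate 1 held one of its higher values. *Rpl41*, the shortest ribosomal protein, had 385, 351, 425 and 392 TPM with CNO and 234, 424, 413 and 354 TPM with vehicle. Here VEH replicate 1 was the lowest sample and the other 7 lay together. *Rpl19*, *Rplp1* and *Rps6* followed with mean levels of 275, 269 and 268 TPM, which differ by less than the spread between samples of any of them.

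Of the 5 members with the lowest levels, 3 were relatives of another subunit, and *Rps15a* and *Rps20* were the others, at means of 34.3 and 47.1 TPM. *Rpl3l*, the form of *Rpl3* known from heart and skeletal muscle, had 0.622 to 1.22 TPM over the 8 samples, compared with 159 to 243 TPM for *Rpl3*. *Rps4l* had 18.2 to 39.0 TPM and *Rps4x*, its X-linked relative, 55.3 to 100.2 TPM, so that the ratio of *Rps4l* to *Rps4x* ranged from 0.253 to 0.407. *Rps4l* is annotated as a transcribed processed pseudogene (GENCODE M21, GRCm38, chr6:148354656-148355598), whereas the other 77 genes are annotated as protein coding. *Rps27l*, a target of p53, ranged from 24.7 to 48.9 TPM and *Rps27* from 78.9 to 158 TPM, with a ratio of 0.270 to 0.349. Among relatives outside the naming rule the order was the opposite in 2 pairs. *Rpl22l1* ranged from 115 to 248 TPM and *Rpl22* from 44.1 to 51.2 TPM, and *Rpl36al* ranged from 116 to 262 TPM and *Rpl36a* from 45.8 to 84.3 TPM. *Rpl22l1* was above *Rpl22* in every sample, by 2.28 to 5.40 times, and the lower end of that range was VEH replicate 1, where *Rpl22l1* was low and *Rpl22* was not.

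Many of these genes have processed pseudogenes that share sequence with them. The share of 31-base stretches of a gene's transcripts that also occur in other genes had a median of 25.1% over the 78 genes and ranged from 0 for *Rpl3l* to 94.1% for *Rpl36*. It exceeded 40% for 16 genes, and reads of those genes could have been assigned to another locus. Pseudogenes named after a member held 1.07 to 1.79% of the members' counts. Loci with other names are not in this share, such as *Gm10073*, which holds 72.5% of the 31-base stretches of *Rplp1*. The share therefore does not measure all reads that could have been assigned elsewhere.

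Ribosomal protein mRNAs moved up and down together across the samples, and the sample that stood lowest was VEH replicate 1. Log2 CPM (counts scaled to the TMM-normalized library size, with a prior count of 2) was set against the mean of each gene over the 8 samples, and the median of this difference over the 78 genes was taken for each sample. It was 0.15, -0.21, 0.19 and 0.31 in CNO replicates 1 to 4, and -0.70, 0.15, 0.17 and -0.03 in VEH replicates 1 to 4. VEH replicate 1 was the lowest of the 8 samples for 74 of the 78 genes. CNO replicate 2 was the lowest of the 4 CNO samples for 77 genes, and CNO replicate 4 was the highest of them for 61. For these counts of lowest and highest samples, the share over all genes was not taken. The SD over the 8 samples had a median of 0.333 on the log2 scale for these genes and 0.234 for all 17495 genes.

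**Figure D2:**
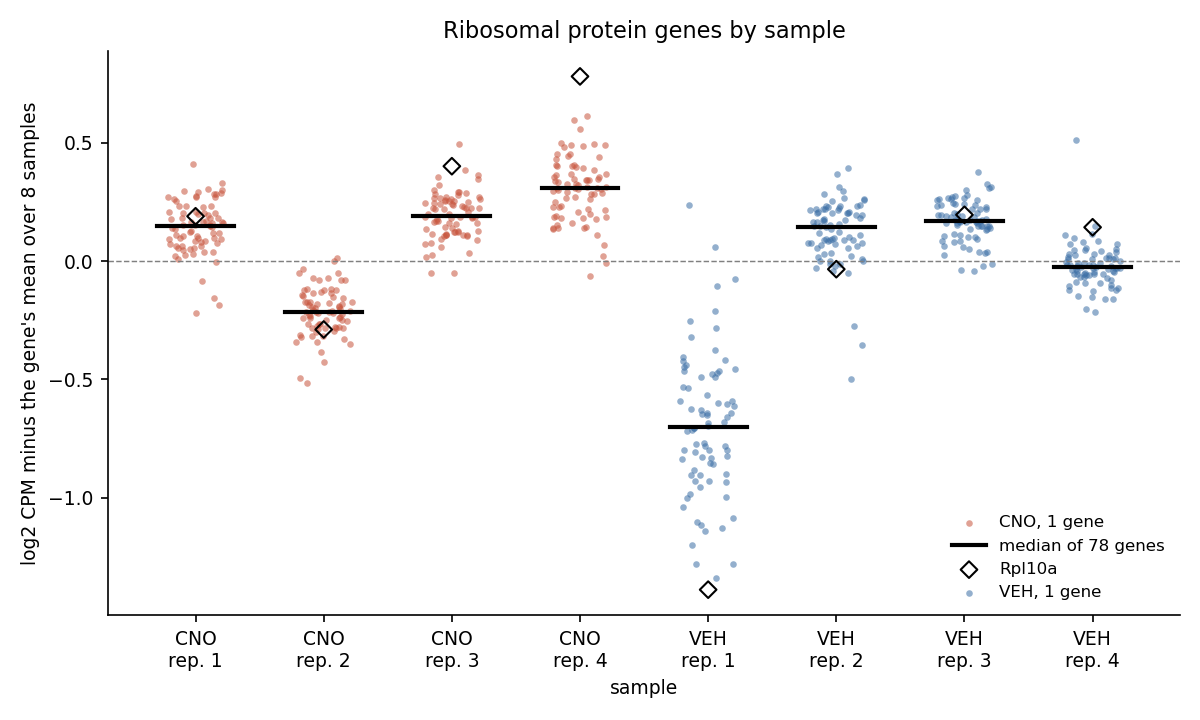
Log2 CPM of each of the 78 genes minus its mean over the 8 samples, by sample; points are genes (red CNO, blue VEH), black bars are medians over the 78 genes and diamonds are *Rpl10a*. VEH replicate 1 has a median of -0.70, whereas the medians of the other 7 samples lie between -0.21 and 0.31.

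In VEH replicate 1 the 78 genes differed from the mean of the other 3 VEH samples by a median of -0.79 on the log2 CPM scale, compared with -0.02 for all genes. VEH replicate 1 was more than 1.5-fold lower for 57 of the 78 genes (73.1%) and for 12.6% of all genes. It was more than 2-fold lower for 19 of the 78, and the share over all genes was not taken at that limit. *Rps29*, a small zinc-binding protein of the small subunit, showed the largest difference at -1.50, with 83.2 TPM in VEH replicate 1, 240, 216 and 196 TPM in VEH replicates 2 to 4, and 164 to 265 TPM in the CNO samples. No other sample came near its value in VEH replicate 1. Small subunit genes had a median difference of -0.90 and large subunit genes of -0.74.

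Not every gene was low in this sample. The difference of VEH replicate 1 from the other VEH samples was 0.30 for *Rpl30*, 0.00 for *Rpl13a*, -0.06 for *Rpl22*, -0.09 for *Rpl35a* and -0.20 for *Rps15a* on the log2 CPM scale. For 3 of these the scale mattered, since on log2 TPM, which corrects for the transcript length estimated in each sample, the difference was -0.10 for *Rpl30*, -0.63 for *Rpl35a* and -0.90 for *Rps15a*. No other member differed by more than 0.3 between the scales, and on log2 TPM the median difference was -0.74 and VEH replicate 1 was again lowest for 74 genes. Across the 78 genes, the difference in log2 CPM (more negative for shorter genes) had a Spearman correlation of 0.44 with transcript length, 0.31 with mean level and -0.29 with the share of sequence found in other genes. These describe genes of the same 8 libraries and are not replicates. The members with CTTTCC near the start, shown above, had a median difference of -0.86 and a range of -1.33 (*Rpl38*) to 0.00 (*Rpl13a*), and the 48 other members with a RefSeq promoter had a median of -0.75.

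Values of cell type markers and of transcript length moved with the ribosomal protein genes. The summed TPM of 12 markers of PV+ interneurons was 1348 in VEH replicate 1, 3109 to 3414 in the other VEH samples, and 2720 to 4225 in the CNO samples, of which CNO replicate 2 was lowest and CNO replicate 4 highest. None of the 12 was listed at 0, and *Pvalb* had 300.1 TPM in VEH replicate 1 and 820 to 1160 TPM in the other samples. *Gad1*, which makes GABA, ranged from 509 to 1817 TPM. The summed TPM of 12 pyramidal neuron markers was highest in VEH replicate 1 at 2304, was 1613 to 2174 in the other VEH samples and 1425 to 1971 in the CNO samples, and *Slc17a7*, their vesicular glutamate transporter, ranged from 331 to 547 TPM. Over all tested genes, the median log2 difference of VEH replicate 1 from the mean of 8 samples was -0.17 in the shortest 20% of genes by transcript length, -0.04 in the next 20% and 0.03 in the longest 20%. The 10 genes with most counts held 32.3% of counts in VEH replicate 1 and 21.0 to 27.2% in the other samples, at totals of 44064161 to 49413273 counts per sample. The part of cell type makeup, of length and of library composition in the result was not tested. In these bulk samples a smaller share of RNA from tagged PV+ interneurons and less of these mRNAs per cell cannot be told apart.

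**Figure D3:**
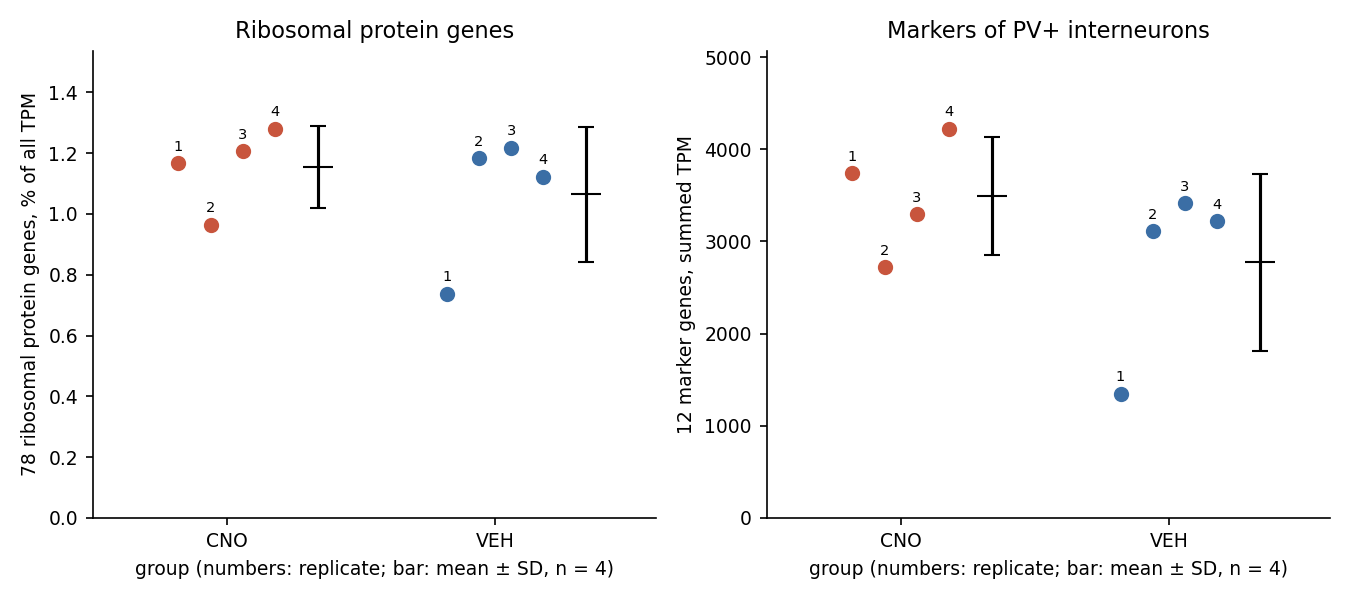
Share of all TPM taken by the 78 genes (left, %) and summed TPM of 12 markers of PV+ interneurons (right) in each sample, with replicate numbers beside the points and the mean ± SD of each group (n = 4). VEH replicate 1 is lowest in both, at 0.738% and 1348 TPM.

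Ribosomal protein mRNAs as a group had slightly higher values with CNO than with vehicle, and no single gene differed beyond the spread between replicates. The shift was near 0 without VEH replicate 1, which was singled out for its low values in these same genes. The 78 genes took 1.15 ± 0.135% of TPM in the CNO samples and 1.07 ± 0.222% in the VEH samples (SD, n = 4 each), and 1.17 ± 0.0481% in VEH without replicate 1 (n = 3). The log2 fold change, CNO over VEH from edgeR's quasi-likelihood fit, was above 0 for 75 of the 78 genes and for 50.4% of all genes. Its median was 0.18 with a range of -0.10 to 0.41, and the median of all genes was 0.00. Without VEH replicate 1 the median was 0.02, with 56 of the 78 above 0 compared with 48.7% of all genes, and 69 of the 78 lay within 0.1 of 0. VEH replicate 1 was the lowest VEH sample for 75 of the 78 genes, so leaving it out lowers their fold change by construction. The values without it, here and below, are a description and not a test. Without CNO replicate 2, the lowest CNO sample, the median was 0.29. Without both samples, a choice made after seeing the data, it was 0.10 with 73 of the 78 above 0. For these 2 fits the median and the share over all genes were not taken. Both samples were picked for low values in these same genes, so the count of 73 is a description only. Large subunit genes had a median of 0.17 and small subunit genes of 0.20, and both had 0.02 without VEH replicate 1.

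With Benjamini-Hochberg adjustment over all 17495 genes, 0 of the 78 genes passed an adjusted p of 0.05, against a background of 0 (0%) for all genes. At an unadjusted p under 0.05 there were 0 of the 78 and 4.09% of all genes. The robust likelihood ratio test of edgeR and the Wald test of DESeq2 called 15 (0.0857%) and 11 (0.0629%) genes of the whole table, 0 of them among the 78. The groups overlapped for every one of the 78 genes, whereas they did not overlap for 2.42% of all genes. A change above 1.5-fold was seen in 0 of the 78 and in 3.85% of all genes. The standard error of the log2 fold change had a median of 0.19, so that a difference of the size of the median change was not detectable for a single gene with these samples. The smallest two-sided exact permutation p (n = 4 against 4) was 0.200, where the smallest that 70 assignments allow is 0.0286.

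**Figure D4:**
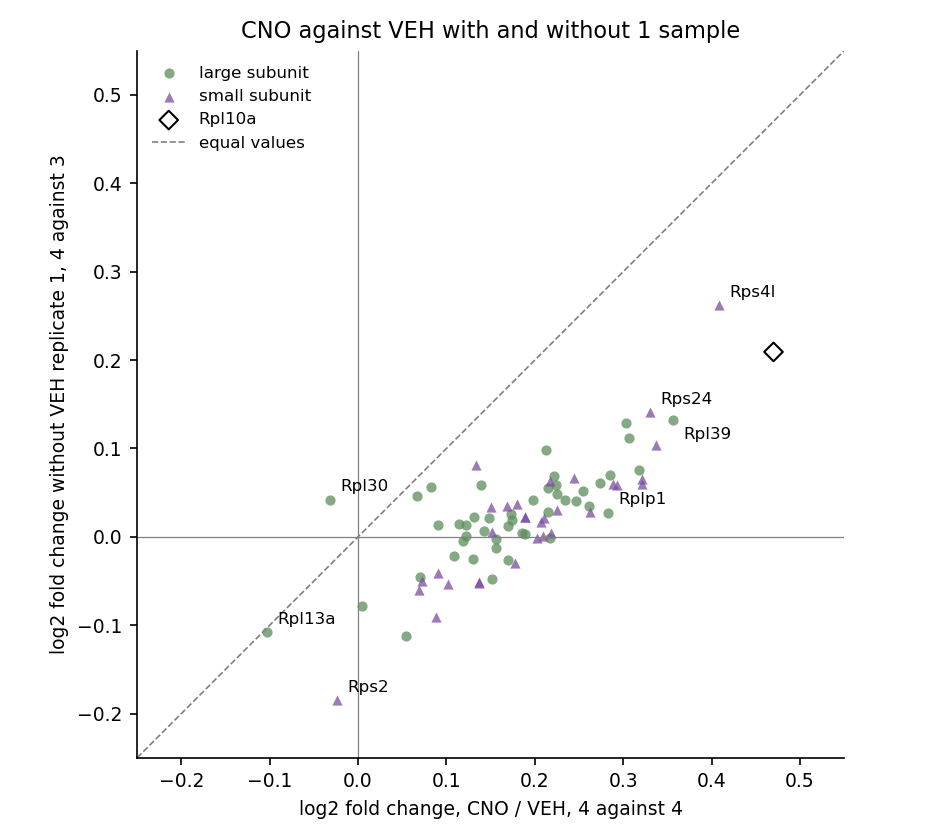
Log2 fold change of each gene (CNO over VEH) with all 8 samples on the horizontal axis and without VEH replicate 1 on the vertical axis; circles are large subunit genes, triangles small subunit genes, the diamond is *Rpl10a* and the dashed line marks equal values. Of the 78 genes, *Rpl30* alone lies above the dashed line, and the median of the 78 genes is 0.18 on the horizontal and 0.02 on the vertical axis.

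The member with the highest fold change was the pseudogene-annotated *Rps4l*. It had 27.9, 27.5, 29.9 and 39.0 TPM with CNO and 18.2, 21.2, 28.4 and 30.6 TPM with vehicle. VEH replicates 1 and 2 were the lowest, while VEH replicates 3 and 4 fell among the CNO samples. Its log2 fold change was 0.41 ± 0.20 (SE; quasi-likelihood unadjusted p = 0.0666, adjusted p = 0.817; edgeR), and 0.26 ± 0.17 without VEH replicate 1. A share of 26.0% of its sequence occurs in other genes. *Rps4x* had a log2 fold change of 0.24 and 0.07 without VEH replicate 1.

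*Rpl39*, *Rps16*, *Rps24* and *Rps26* came next, with log2 fold changes of 0.36, 0.34, 0.33 and 0.32. *Rps24*, a small subunit protein mutated in Diamond-Blackfan anaemia, had 164, 121, 172 and 173 TPM with CNO and 85.3, 132, 158 and 153 TPM with vehicle. CNO replicate 2 fell below 3 of the VEH samples. *Rps16* had 46.6 TPM in VEH replicate 1 and 81.4 to 126 TPM in the other 7 samples. Without VEH replicate 1 the 4 values were 0.13, 0.10, 0.14 and 0.07, and *Rps4l* and *Rps24* then had the highest values of the 78 genes. At the other end *Rpl13a*, *Rpl30* and *Rps2* had log2 fold changes of -0.10, -0.03 and -0.02, and *Rpl5* and *Rpl27a* had 0.00 and 0.05. *Rpl5*, which with RPL11 and 5S rRNA binds MDM2, had 127, 111, 123 and 115 TPM with CNO and 119, 134, 133 and 123 TPM with vehicle, with no separation of the groups. *Rps2*, a small subunit protein near the mRNA entry, had the lowest value of all 78 without VEH replicate 1, at -0.18.

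The stalk proteins, which bring elongation factors to the large subunit, included the gene with one of the deepest drops in VEH replicate 1. *Rplp1* had 306, 228, 286 and 336 TPM with CNO and 118, 297, 305 and 273 TPM with vehicle. Only VEH replicate 1 stood apart, and the log2 fold change of 0.28 ± 0.28 (SE) was 0.03 without it. *Rplp2*, its partner, had 285 ± 32.3 TPM with CNO and 246 ± 68.7 TPM with vehicle (SD, n = 4 each), and *Rplp0*, which anchors the stalk, had 139 ± 20.1 and 126 ± 26.9 TPM. Their log2 fold changes were 0.23 and 0.21, and 0.04 and 0.05 without VEH replicate 1. *Rpsa*, also a receptor for laminin, was lowest in VEH replicate 1 at 37.2 TPM and highest in CNO replicate 4 at 84.3 TPM, with a log2 fold change of 0.18 that was -0.03 without VEH replicate 1.

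*Rps6*, the substrate of S6 kinase, had 263, 240, 276 and 295 TPM with CNO and 205, 273, 303 and 286 TPM with vehicle. The groups overlapped, with a log2 fold change of 0.07 ± 0.15 (SE), and -0.06 without VEH replicate 1. These values measure ribosome-bound mRNA of *Rps6* and not phosphorylation of its protein. *Rps27a*, made as a fusion with ubiquitin, had a log2 fold change of 0.19, and 0.02 without VEH replicate 1.

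*Rpl10a* had the highest level of the 79 genes. It had 866, 655, 995 and 1295 TPM in CNO replicates 1 to 4 and 301, 755, 882 and 911 TPM in VEH replicates 1 to 4. Its mean of 833 TPM was 6.57 times the median member, and the ratio within a sample ran from 3.75 in VEH replicate 1 to 8.47 in CNO replicate 4. Counts on *Rpl10a* (GENCODE M21, GRCm38, chr17:28328471-28331033, protein coding) can come from the endogenous gene and from the tagged viral copy, which these files do not separate. The groups overlapped, at 953 ± 268 TPM with CNO and 712 ± 283 TPM with vehicle (SD, n = 4 each). The log2 fold change was 0.47 ± 0.32 (SE; quasi-likelihood unadjusted p = 0.165, adjusted p = 0.817; edgeR) and 0.21 ± 0.20 without VEH replicate 1. In VEH replicate 1 its log2 CPM differed from the mean of the other VEH samples by -1.49. This lies at the low end of the 78 other genes, which ran from -1.50 (*Rps29*) to 0.30 with a median of -0.79.

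The rest of the translation machinery was compared from lists of other subunits, translation factors, assembly factors and signalling genes, each of which held 0 genes at an adjusted p under 0.05 (edgeR, quasi-likelihood). Of 7 subunits that the naming rule missed, 6 had values above 0 and 1 below, with a median log2 fold change of 0.18 and 0.02 without VEH replicate 1. *Rpl36al* had the smallest p of them, with a log2 fold change of 0.31 (unadjusted p = 0.160, edgeR), and 0.12 without VEH replicate 1, at 233 ± 29.7 TPM with CNO and 193 ± 52.2 TPM with vehicle (SD, n = 4 each). *Gnb2l1*, which encodes the scaffold RACK1 on the small subunit, had -0.03, and -0.05 without VEH replicate 1, at 79.5 to 104.8 TPM.

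Ribosomal proteins of mitochondria are encoded by nuclear genes of their own. Of 79 genes tested by that name, 76 had a log2 fold change above 0, with a median of 0.17, and 0.06 without VEH replicate 1. The 79 include 2 pseudogenes, *Mrpl23-ps1* and *Mrpl48-ps*, and without these 74 of 77 were above 0, with the same medians of 0.17 and 0.06. They lay at a median of -0.56 in VEH replicate 1 relative to the other VEH samples. *Mrpl33* and *Mrps31* had the smallest p, with log2 fold changes of 0.19 and 0.31 (unadjusted p = 0.0698 and 0.0707, edgeR). Both had 0.21 without VEH replicate 1.

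Elongation factors carry tRNA to the ribosome and move it along the mRNA. The list of them and of related genes had a median log2 fold change of 0.11 (8 of 10 above 0) and 0.03 without VEH replicate 1. It includes *Eef2k*, a kinase, and *Eef1e1*, which are not elongation factors, at -0.05 and 0.32. *Eif5a2* and *Eef1b2* had the smallest p in the list, with 0.32 and 0.21 (unadjusted p = 0.157 and 0.177, edgeR), and 0.15 and 0.08 without VEH replicate 1. Other mRNAs known to carry a TOP motif had a median of 0.12 (17 of 19 above 0) and 0.04, and *Eef1b2* and *Vim* had the smallest p, the latter with 0.42 and 0.24 without VEH replicate 1. The list of initiation factors, most of which help to load the ribosome onto mRNA, had 0.12 (32 of 40 above 0) and 0.04. It also holds *Eif4ebp1*, *Eif4ebp2* and *Eif6*, which do not load it, at -0.23, -0.07 and -0.0036. The smallest p in this list was for *Eif3g* at 0.29 and *Eif1b* at 0.31 (unadjusted p = 0.140 and 0.177, edgeR). Both had 0.11 without VEH replicate 1. These 3 lists lay at -0.56, -0.54 and -0.40 in VEH replicate 1 relative to the other VEH samples, compared with -0.79 for the ribosomal protein genes. Some genes stand in more than 1 of these lists.

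Genes that build ribosomes and genes of the mTOR pathway had medians near 0. For 53 genes of ribosome biogenesis the median log2 fold change was 0.00, with 28 above and 25 below 0, and their median in VEH replicate 1 was -0.03 relative to the other VEH samples. *Polr1b*, a core subunit of RNA polymerase I, was lower with CNO at an unadjusted p under 0.05, with a log2 fold change of -0.41 (unadjusted p = 0.00723, adjusted p = 0.817, edgeR) that was -0.37 without VEH replicate 1, and *Gnl3*, which encodes nucleostemin, had 0.20 (unadjusted p = 0.0554). For 29 genes of mTOR and S6 kinase signalling the median was 0.01, with 15 above and 14 below 0, and their median in VEH replicate 1 was -0.19. Without VEH replicate 1 the median was -0.05, with 11 of the 29 above 0. The list includes *Pdk1*, a pyruvate dehydrogenase kinase outside this pathway. Without that gene 15 of 28 were above 0, with a median of 0.0096 that was -0.05 without VEH replicate 1. The 28 still hold *Rps6ka1*, *Rps6ka2*, *Rps6ka3*, *Rps6ka4* and *Rps6ka5*, kinases that are not part of mTOR signalling. *Akt2* and *Rragd* had the smallest p, with -0.18 and -0.16 (unadjusted p = 0.0911 and 0.118, edgeR), and -0.12 and -0.17 without VEH replicate 1.

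**Figure D5:**
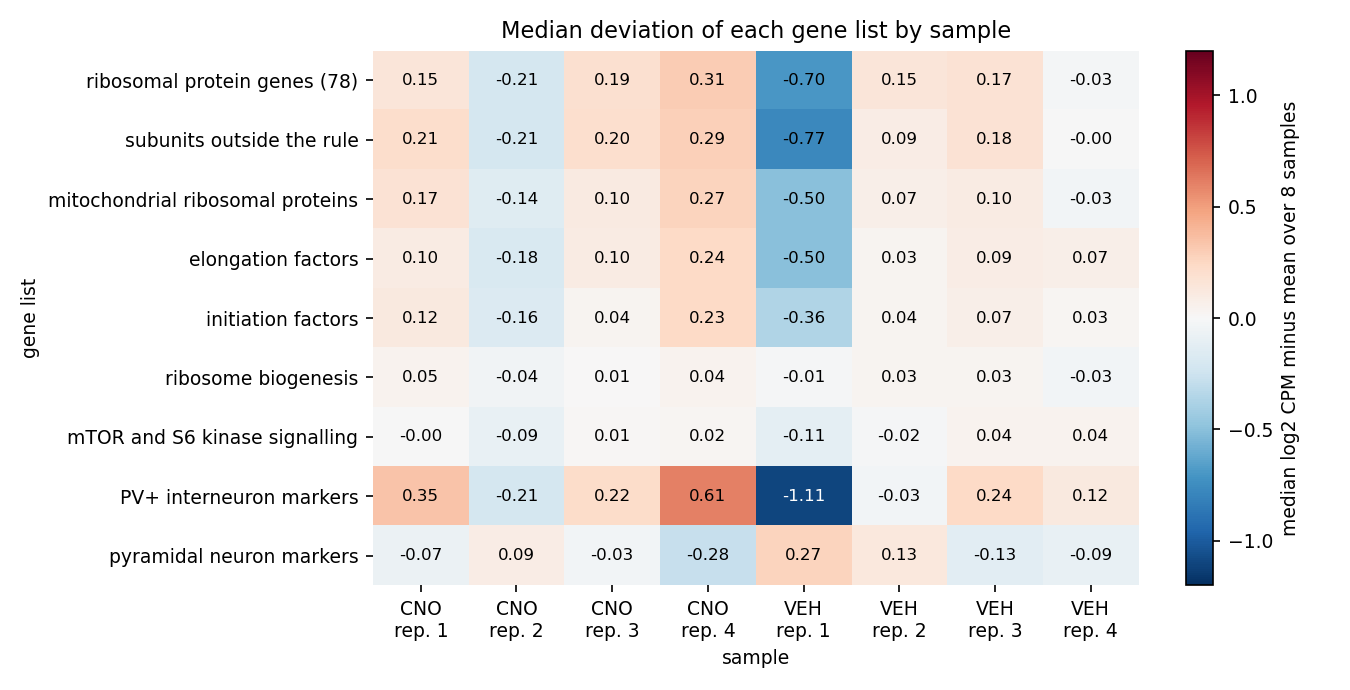
Median over each gene list of log2 CPM minus the gene's mean over the 8 samples, by sample, printed in each cell (red above 0, blue below 0). The ribosomal protein genes and the PV+ interneuron markers are lowest in VEH replicate 1, at -0.70 and -1.11, whereas ribosome biogenesis stays between -0.04 and 0.05 and pyramidal neuron markers reach 0.27 there.

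Of 256 pseudogenes named after a member, 27 passed the count filter, with 16 above and 11 below 0 and a median log2 fold change of 0.13, which was 0.03 without VEH replicate 1. Their log2 fold changes ran from -0.93 to 0.93. At an unadjusted p under 0.05 there were 2 higher and 1 lower of the 27, compared with 4.09% of all genes in either direction. The 2 higher were *Rpsa-ps10* and *Rpl34-ps1*, with log2 fold changes of 0.93 and 0.52 (unadjusted p = 0.0230 and 0.0440, adjusted p = 0.817, edgeR). Without VEH replicate 1 they had 0.75 and 0.34. *Rpl34-ps1* was named after its values were seen. *Rpsa-ps10* was rare, at 0.989 TPM on average. Pseudogenes share sequence with their parent genes, so these values are uncertain.

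Markers of other cells showed which other RNA the pulldown held. All 7 markers each of astrocytes, microglia and vessels, all 8 of oligodendrocytes and all 7 of other interneurons were detected. *Aldoc* of astrocytes ranged from 250.2 to 329 TPM, *Lamp5* of other interneurons from 151 to 316 TPM, *P2ry12* of microglia from 9.48 to 22.6 TPM, *Vtn* of vessels from 17.3 to 32.8 TPM, and *Nrgn* of pyramidal neurons from 753 to 1267 TPM. The markers of PV+ interneurons had a median log2 fold change of 0.40 (12 of 12 above 0) and 0.16 without VEH replicate 1, those of pyramidal neurons -0.13 (1 of 12 above 0), oligodendrocytes -0.22 (0 of 8), microglia -0.19 (0 of 7), astrocytes -0.03 (3 of 7), other interneurons -0.18 (3 of 7) and vessels 0.28 (6 of 7). Without VEH replicate 1 the medians were -0.07 for pyramidal neurons, -0.17 for oligodendrocytes, -0.10 for microglia, -0.0035 for astrocytes, -0.16 for other interneurons and 0.20 for vessels. The summed TPM of oligodendrocyte markers was 569 to 1027 with CNO and 783 to 1006 with vehicle, and the groups overlapped for the sum of every marker list. At an unadjusted p under 0.05 (edgeR), 2 of 7 markers of other interneurons and 1 of 7 of microglia were lower with CNO. In the same test 1 of 12 of PV+ interneurons was higher, compared with 4.09% of all genes. *Lamp5* had a log2 fold change of -0.37 and *P2ry12* of -0.38. The groups did not overlap for 1 marker of other interneurons. The part of these markers in the fold changes of ribosomal protein genes was not tested.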

How the data were processed

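Per the labels and the study's methods, RNA from HA-immunoprecipitated ribosomes (RIN above 9) was amplified with the SMARTer Ultra Low kit and sequenced paired-end. The authors used FastQC, Trim Galore for trimming, STAR for alignment to GRCm38 (mm10) and Salmon for quantification; tool versions are not given in the sources used here. The authors deposited estimated counts without normalization or gene filter, and TPM, which are corrected for transcript length, for 45706 genes; gene names came from a deposited list of identifiers. The kit keeps no strand, so reads of overlapping antisense genes cannot be told apart.

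Estimated counts were rounded and genes with at least 10 counts in at least 5 of 8 samples kept (17495). Library totals ran from 44064161 to 49413273 counts, so that 3 counts correspond to 0.0607 to 0.0681 CPM, which covers counting error only because copied reads are not independent molecules. CNO (4 samples) and VEH (4 samples) were compared in R 4.3.3 with edgeR 4.0.16 (TMM, quasi-likelihood test, Benjamini-Hochberg adjustment over all genes; common biological coefficient of variation 0.183). Log2 CPM used a prior count of 2. A two-sided exact permutation test was run on each member. The test was tried on simulated counts first. Alternatives were the likelihood ratio test with robust dispersion, DESeq2 1.42.0, limma 3.58.1 on log2 TPM with 1 or 0.1 added, other normalizations, an offset for length, other filters, pseudogene counts added to the parent gene, a replicate block, each sample left out in turn, and, chosen after seeing the data, VEH replicate 1 and CNO replicate 2 left out together. Shared sequence and gene positions came from GENCODE M21 (GRCm38) and promoters from RefSeq (GRCm38.p6). Plots used Python 3.11.15 and matplotlib 3.10.9.

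The members, the gene lists and the tests were chosen with earlier results of these data known. Genes named are *Rpl10a*, the stalk genes, *Rpsa*, the 5 members at each end of mean TPM and of log2 fold change, pairs of relatives, *Rps27a*, *Rps6*, and up to 2 genes per list with the smallest p, plus marker genes. Others (*Rps29*, *Rpl22*, *Rpl22l1*, *Rpl35a*, *Rpl36a*, *Rpl36*, *Gnb2l1* and members with a motif) were named after their values were seen. Some genes that the rule names are not reported here.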

Additional observations from a re-analysis of the deposited data

Results flagged for a closer look

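For 29 measures (the named genes, the members' share of TPM and their median level), the lowest and highest sample of each group of 4 were compared with the other 3 by Dixon's test of gap over range. Of 58 groups examined, 8 held a sample past the 95% critical value, where chance gives about 1 in 20, or 2.9, for independent measures. These measures come from the same 8 libraries and moved together, so the 8 flags are not separate events to set against 2.9. VEH replicate 1 was the low sample in 5 of the 8 flagged groups. Its log2 CPM was 6.29 for *Rpl10a* (other VEH samples 7.65 to 7.88), 5.17 for *Rplp0* (5.88 to 5.94), 5.04 for *Rps2* (5.75 to 5.84), 4.09 for *Rps4x* (4.88 to 5.03) and 2.34 for *Rpl39* (3.41 to 3.63). CNO replicate 2 was the low sample in the other 3, at 5.68 for *Rpl5* (other CNO samples 5.96 to 5.97), 3.97 for *Rps24* (4.47 to 4.56) and 3.89 for *Rpl27a* (4.38 to 4.43). These are the samples with the lowest summed TPM of PV+ interneuron markers in their groups, at 1348 and 2720, and the part of that in the values was not tested.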

How the results depend on the processing

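The number of the 78 ribosomal protein genes at an adjusted p under 0.05 was 0 in each of 20 alternative fits, and their median log2 fold change stayed above 0 in these, between 0.02 (without VEH replicate 1) and 0.29 (without CNO replicate 2). The share of TPM taken by them differed between CNO and VEH by 0.0897 percentage points, and by -0.0194 to 0.153 with 1 sample left out. Over all genes, the number called was 15 with the robust likelihood ratio test, 11 with DESeq2, 4 without the count filter and 0 to 2 with 1 sample left out. At an unadjusted p under 0.05, 1 member appeared without the count filter, 1 with the replicate block and 0 to 1 with 1 sample left out (without CNO replicate 2, VEH replicate 3 or VEH replicate 4), each time *Rps4l*, and 1 without VEH replicate 1 and CNO replicate 2, which was *Rps24*. Values near 0 changed sign. *Rpl5* was -0.0921 and -0.0928 with limma at the 2 pseudocounts, -0.0514 by library size only, -0.0119 with the length offset, -0.0050 at mean TPM above 1, -0.0207 without both samples, and -0.0782 to 0.0715 with 1 sample left out. *Rpl27a* was -0.0019 by library size only, -0.0076 without both samples and -0.11 to 0.17 with 1 left out. *Rpl30* was 0.0683 with the length offset, 0.0937 without both samples and -0.11 to 0.0420 with 1 left out, and *Rps2* was 0.0069 with the length offset and -0.185 to 0.0510 with 1 left out. With 1 sample left out, the log2 fold change ran from -0.0463 to 0.18 for *Rpl3*, -0.0217 to 0.20 for *Rpl10*, -0.0029 to 0.25 for *Rpl19*, -0.0131 to 0.28 for *Rpl41*, -0.0907 to 0.19 for *Rps27*, -0.0605 to 0.16 for *Rps6* and -0.0296 to 0.32 for *Rpsa*. The cause was not tested.

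Samples with the same replicate number deviated together with correlations of 0.03, -0.03, 0.16 and 0.24 over 17495 genes, so the numbers were not taken as pairs. With the replicate block the median of the members was 0.205, *Rpl10a* was 0.54 and no member was called. With 4 pools a group, the median standard error of 0.19 limits what a single gene can show, and shared sequence limits members with many pseudogenes.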
